A study of Mus musculus with 2 samples.

Results

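The genes examined here encode the enzymes that turn arachidonic acid into leukotrienes and prostaglandins. The set was defined by name as 8 gene symbols (Alox5, Alox5ap, Lta4h, Ltc4s, Alox15, Ptgs1, Ptgs2 and Ptges) and all 8 were found among the 24421 symbols measured. RNA came from granulocyte-monocyte progenitors (GMPs), the bone marrow cells from which granulocytes and monocytes arise, sorted by flow cytometry from female mice of a semi-syngeneic F1 background (H-2b/d). One group had no tumor (NTB-GMP), and the other carried 4T1, a mouse mammary carcinoma line, implanted orthotopically (4T1-GMP). Comparing them asks how a tumor away from the marrow bears on transcripts of these progenitors. The study's methods give a gate for GMPs that were put in culture, namely marrow depleted of cells bearing CD3, B220, Gr-1 or Ter-119 and then sorted by CD150, CD16/32, Sca-1 and c-Kit. The gate of the sequenced GMPs is not given in the sources used here. The labels give neither age nor the number of mice pooled, and each group is 1 library. There is therefore no replicate error, and every interval on a ratio is a 95% Clopper-Pearson interval on sequencing reads that covers counting error only and compares these libraries rather than the conditions.

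Arachidonic acid is cut from membrane phospholipids by phospholipase A2 and then enters one of several branches. In the leukotriene branch, 5-lipoxygenase (Alox5), helped by its activating protein FLAP (Alox5ap), makes leukotriene A4, which leukotriene A4 hydrolase (Lta4h) converts to the neutrophil attractant LTB4 or leukotriene C4 synthase (Ltc4s) joins to glutathione to start the cysteinyl leukotrienes of eosinophils, basophils and mast cells. The 12/15-lipoxygenase (Alox15) is known from eosinophils and macrophages. In the prostaglandin branch, the cyclooxygenases COX-1 (Ptgs1), usually constitutive, and COX-2 (Ptgs2), usually inducible, make prostaglandin H2, from which microsomal prostaglandin E synthase (Ptges) makes prostaglandin E2, a lipid much studied in the biology of myeloid-derived suppressor cells.

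The cyclooxygenases differed widely in abundance in GMPs, and COX-1 had the largest difference upward of the 8 genes in the tumor-bearing group. Ptgs1 stood at 12.3 RPKM (359 reads) in NTB-GMP against 36.1 RPKM (3103 reads) in 4T1-GMP, whereas Ptgs2 stood at 0.0711 RPKM (3 reads) and 0.0563 RPKM (7 reads). RPKM are reads per kilobase of gene, scaled to the size of the library. Levels of different genes can be compared only as far as the gene lengths used hold, and those are not given. Ptgs1 was 2.93-fold higher in 4T1-GMP (interval 2.63 to 3.28). The ratio for Ptgs2 was 0.791 (interval 0.181 to 4.74), a range too wide to give a direction at this depth. In RPKM, Ptgs1 exceeded Ptgs2 by 173 times in NTB-GMP and by 641 times in 4T1-GMP, ratios that rest on the few Ptgs2 reads.

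The sequences before the start sites of this pair are shown because the isoforms differ so widely in level, together with that of Alox5, whose level differed in the opposite direction from those of Alox5ap and Lta4h. The RefSeq table used here held 6 of the 8 genes, without Alox5ap and Alox15, on GRCm38.p6, the patch release of the mm10 build named for these data. Each line holds the 250 bases before the start, 5′ to 3′ on the strand of the gene. Ptgs1 lies at chr2:36230176-36230425 on the plus strand, Ptgs2 at chr1:150099781-150100030 on the plus strand and Alox5 at chr6:116461179-116461428 on the minus strand. Capitals mark matches on either strand to the core of the PU.1 site, GAGGAAG, to the C/EBP palindrome, TTGCGCAA, or to the GC box, GGGCGG.
Ptgs1: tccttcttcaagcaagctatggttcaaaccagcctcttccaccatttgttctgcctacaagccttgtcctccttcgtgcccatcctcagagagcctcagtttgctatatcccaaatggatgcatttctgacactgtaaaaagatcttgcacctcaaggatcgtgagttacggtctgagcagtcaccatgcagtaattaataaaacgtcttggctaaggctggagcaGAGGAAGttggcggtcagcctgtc
Ptgs2: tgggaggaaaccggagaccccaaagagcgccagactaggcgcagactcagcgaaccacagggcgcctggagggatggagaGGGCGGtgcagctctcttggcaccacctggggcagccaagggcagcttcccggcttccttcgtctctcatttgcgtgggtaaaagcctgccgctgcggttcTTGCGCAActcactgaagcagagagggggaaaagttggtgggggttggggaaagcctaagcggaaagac
Alox5: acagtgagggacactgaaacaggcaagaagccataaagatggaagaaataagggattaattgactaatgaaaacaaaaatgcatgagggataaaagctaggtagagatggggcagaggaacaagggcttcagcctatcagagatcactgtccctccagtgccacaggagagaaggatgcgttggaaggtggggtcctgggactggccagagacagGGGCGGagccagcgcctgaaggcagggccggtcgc

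The Ptgs1 window held the PU.1 core 24 to 18 bases before the start, a heptamer found in 10.6% of the 32851 mouse windows of the same length. The Ptgs2 window held the C/EBP palindrome 69 to 62 bases before the start, found in 0.164% of all windows, and a GC box. Alox5 held a GC box 35 to 30 bases before the start, a hexamer present in 32.7% of windows. The GATA hexamer, AGATAA, was searched too and was in none of the 6 windows. It was in 9.99% of all windows, and 6 windows are too few to show a difference from that share. PU.1 and C/EBP proteins are transcription factors of the myeloid lineage and GATA factors serve the mast cell, basophil, eosinophil and erythroid lineages. These matches describe the letters only, and no binding was measured.

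In the leukotriene branch, the first enzyme and the steps around it differed in direction. Alox5 stood at 10.3 RPKM (297 reads) in NTB-GMP and 6.20 RPKM (526 reads) in 4T1-GMP, 1.66-fold lower (interval 1.44 to 1.92). Alox5ap stood at 93.4 RPKM and 118 RPKM, 1.27-fold higher in 4T1-GMP (interval 1.15 to 1.41). Lta4h was the highest of the 8 genes in each library, at 272 RPKM without and 418 RPKM with the tumor, 1.54-fold higher (interval 1.47 to 1.60). Its level was above that of 98.8% of genes detected in NTB-GMP and 99.0% of those detected in 4T1-GMP. The balance within the branch differed accordingly. Per RPKM of Alox5 there were 26.4 RPKM of Lta4h in NTB-GMP against 67.4 RPKM in 4T1-GMP, and for Alox5ap the same ratio was 9.05 and 19.1.

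The enzymes that lead toward cysteinyl leukotrienes and 15-lipoxygenase products were low. Ltc4s was covered by 1 read in each library, so that both values were below the 3 reads taken as the least amount detected and no fold is given. Those reads amount to 0.167 RPKM without and 0.0567 RPKM with the tumor. Alox15 had 33 reads (1.34 RPKM) in NTB-GMP and 13 reads (0.179 RPKM) in 4T1-GMP, 7.48-fold lower with the tumor (interval 3.84 to 15.5). This was the largest difference in either direction among the members with more than 3 reads, and it was measured on the fewest reads apart from Ptgs2. At the end of the prostaglandin branch, Ptges had 10 reads (0.269 RPKM) in NTB-GMP and 51 reads (0.466 RPKM) in 4T1-GMP, a ratio of 1.73 whose interval (0.868 to 3.82) included no difference.

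**Figure D1:**
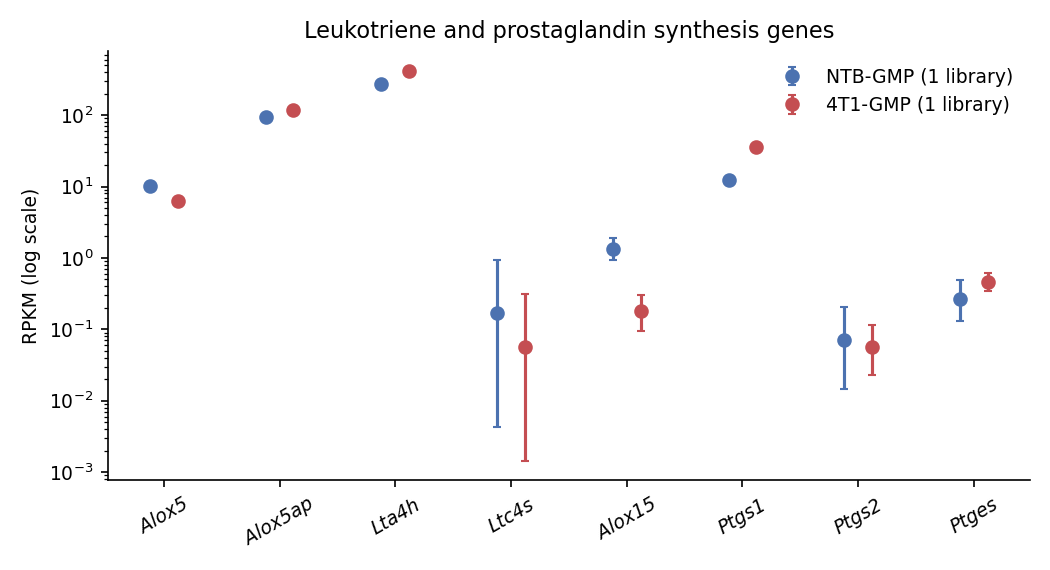
RPKM of each of the 8 genes (log scale) in the NTB-GMP library and in the 4T1-GMP library, 1 point per library, with exact Poisson 95% intervals on the reads. Lta4h, Alox5ap, Ptgs1 and Alox5 lie between 6.20 and 418 RPKM in both libraries, and the other 4 genes lie at or below 1.34 RPKM.

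The order of the levels was nearly the same in both libraries. It ran Lta4h, Alox5ap, Ptgs1 and Alox5, and only the low genes changed place, with Alox15 ahead of Ptges in NTB-GMP and behind it in 4T1-GMP. In NTB-GMP the exact Poisson intervals of Ptgs1 (11.1 to 13.6 RPKM) and Alox5 (9.18 to 11.6 RPKM) overlapped, so their order is not resolved there. In 4T1-GMP they were apart, at 34.8 to 37.4 RPKM for Ptgs1 and 5.68 to 6.75 RPKM for Alox5. The intervals of Ptges (0.129 to 0.495 RPKM), Ltc4s (0.00423 to 0.931 RPKM) and Ptgs2 (0.0147 to 0.208 RPKM) overlapped in NTB-GMP. In 4T1-GMP that of Ptges (0.347 to 0.613 RPKM) was apart from those of Alox15 (0.0955 to 0.307 RPKM) and Ptgs2 (0.0226 to 0.116 RPKM).

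**Figure D2:**
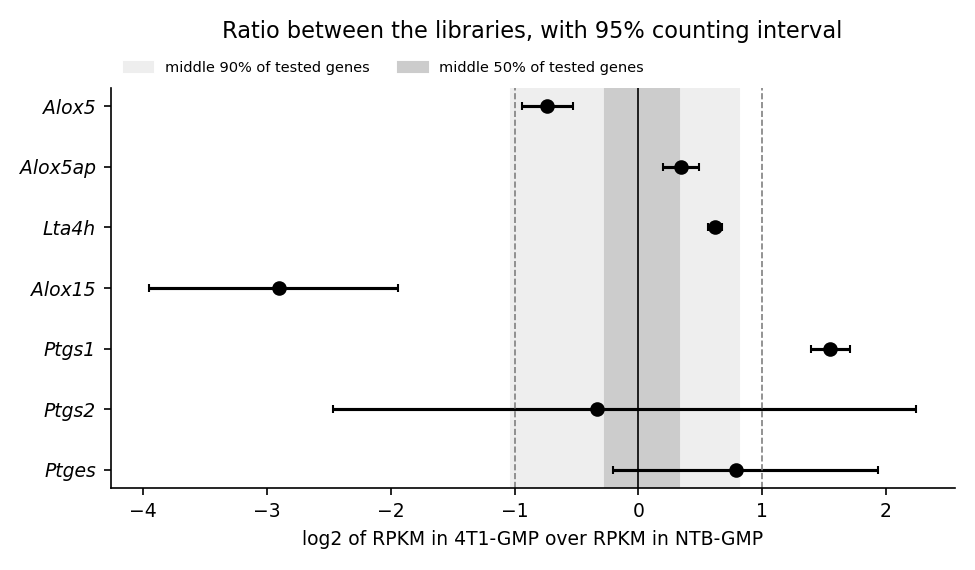
Log2 of the RPKM ratio, 4T1-GMP over NTB-GMP, for the 7 genes with more than 3 reads in a library, with 95% Clopper-Pearson intervals on the reads; shading marks the quartile range and the range from the 5th to the 95th percentile of the tested genes and dashed lines mark 2-fold. Ptgs1 lies to the right of the 2-fold line and Alox15 to the left, and the intervals of Ptgs2 and Ptges include 0.

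To set the genes against the rest of the transcriptome, each ratio was computed as a difference in log2(RPKM + 0.1), which understates differences of low genes, for the 10378 genes that averaged 1 RPKM or more. Of these, 3.25% were at least 2-fold higher in 4T1-GMP and 4.92% at least 2-fold lower, and the median log2 ratio was 0.05. Only 4 of the 8 genes met the level. Of the 4, Ptgs1 was at least 2-fold higher and 0 were at least 2-fold lower. Ptgs1, with a log2 ratio of 1.54, lay above 98.5% of tested genes. Lta4h, with a log2 ratio of 0.62, lay above 91.2% and Alox5ap, with 0.34, above 76.5%. Alox5, with a log2 ratio of -0.73, lay above only 8.52% of tested genes. Alox15, Ptges, Ltc4s and Ptgs2 were under the level. Alox15, at a mean of 0.761 RPKM, was the nearest to it and had a log2 ratio of -2.37. Rn45s, the ribosomal RNA precursor, took 16.95% of the NTB-GMP library and 6.98% of the 4T1-GMP library. After its removal from the library sizes the median of all tested genes moved by -0.16, and the log2 ratio became 1.38 for Ptgs1, 0.46 for Lta4h, 0.18 for Alox5ap and -0.89 for Alox5. Quantile normalization put Alox5ap at 0.09 and Lta4h at 0.34.

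The wider eicosanoid pathway was described with 78 further symbols in 8 roles, of which 32 averaged 1 RPKM or more, 30 averaged less and 16 were listed at 0 in both libraries. Of the 32, 5 were at least 2-fold higher in 4T1-GMP and 1 was at least 2-fold lower, and 26 lay between. The shares of all tested genes were 3.25% higher and 4.92% lower. Fpr2, Cyp4f18 and Ptgir averaged 1 RPKM or more only through 4T1-GMP, and Faah only through NTB-GMP. For such genes the filter itself favors a call, so the counts are a description only. The median log2 ratio of the 32 was 0.27, and 23 were higher in 4T1-GMP, against 54.7% of all tested genes. Without Rn45s in the library sizes, 3 were at least 2-fold higher and 2 lower, since Mgst2 (0.97), Ptgr1 (0.99) and Pla2g6 (-1.13) crossed the line.

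Among arachidonate release genes, Daglb, a diacylglycerol lipase, had the highest mean, at 18.0 RPKM in NTB-GMP against 29.3 RPKM in 4T1-GMP. Faah, which degrades anandamide to arachidonate, was the gene of the wider set at least 2-fold lower, with 1.78 RPKM and 0.471 RPKM, 3.77-fold lower (interval 1.95 to 7.41). Pla2g4a, the cytosolic phospholipase A2 that supplies the lipoxygenases and cyclooxygenases, was named after its values were seen. It had 17.2 RPKM and 22.7 RPKM, 1.32-fold higher (interval on the log2 scale 0.26 to 0.54). Among the other lipoxygenases, Alox8, Alox12, Alox12b, Alox12e and Aloxe3 all lay under 1 RPKM in both libraries. Cotl1, a 5-lipoxygenase binding protein, had 60.1 RPKM and 53.7 RPKM.

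The genes that act on leukotrienes after Lta4h and Ltc4s held 3 of the 5 symbols at least 2-fold higher. In this role 8 genes averaged 1 RPKM or more. Cyp4f18, which inactivates LTB4 by oxidation at its tail, had 0.519 RPKM (9 reads) in NTB-GMP and 4.60 RPKM (235 reads) in 4T1-GMP, 8.86-fold higher (interval 4.59 to 19.6). Ptgr1, which oxidizes LTB4 and reduces prostaglandin breakdown products, had 25.02 RPKM and 55.6 RPKM, 2.22-fold higher (interval 1.72 to 2.92). Mgst2, a microsomal glutathione transferase that can also make leukotriene C4, had 14.0 RPKM and 30.9 RPKM, 2.20-fold higher (interval 1.59 to 3.11). Mgst2 was thus measured where Ltc4s was at 1 read in each library.

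Terminal prostanoid synthases showed no difference of 2-fold among the 4 at or above the level. Ptges3, the cytosolic prostaglandin E synthase and p23 co-chaperone of HSP90, had 185 RPKM and 231 RPKM, and exceeded Ptges by 685 times in NTB-GMP, where Ptges had 10 reads, and by 495 times in 4T1-GMP, where it had 51. Tbxas1, which makes thromboxane from the product of COX-1, was named after its values were seen. It had 15.6 RPKM and 9.60 RPKM, 1.63-fold lower (interval 1.42 to 1.87), so that the level of Ptgs1 was 0.787 times that of Tbxas1 in NTB-GMP and 3.76 times in 4T1-GMP. Abcc4, an exporter of prostaglandins, had 25.3 RPKM and 31.4 RPKM.

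Of the receptors, Ltb4r1, the high-affinity LTB4 receptor, had 25.1 RPKM and 30.2 RPKM, a log2 ratio of 0.27 (interval 0.10 to 0.44). Fpr2, a formyl peptide receptor that also binds lipoxin A4, had 0.379 RPKM (5 reads) and 6.48 RPKM (252 reads), 17.1-fold higher (interval 7.23 to 53.1). Ptgir, the prostacyclin receptor, had 0.825 RPKM (14 reads) and 2.52 RPKM (126 reads), 3.05-fold higher (interval 1.75 to 5.74). Ptger4, a prostaglandin E2 receptor and the highest of the prostanoid receptors, had 7.23 RPKM and 5.87 RPKM.

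**Figure D3:**
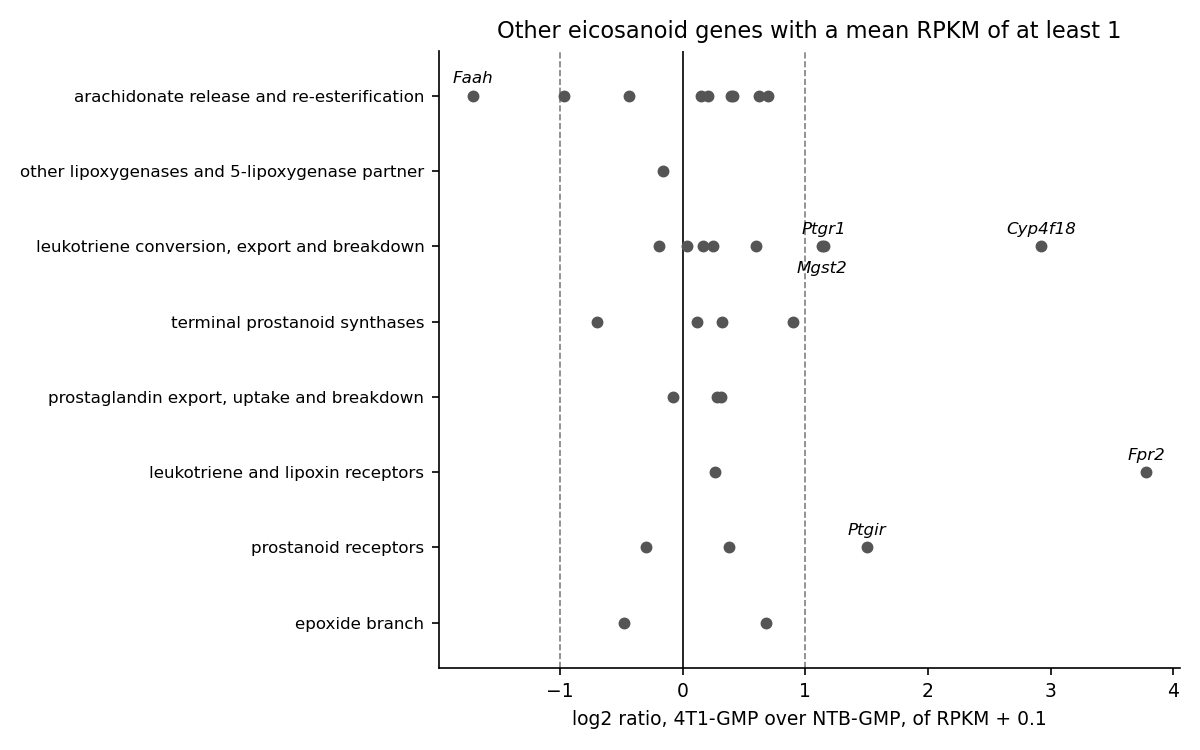
Log2 ratio, 4T1-GMP over NTB-GMP, on the log2(RPKM + 0.1) scale for the 32 further eicosanoid genes that averaged 1 RPKM or more, 1 point per gene, grouped by role, with dashed lines at 2-fold. Cyp4f18, Ptgr1, Mgst2, Fpr2 and Ptgir lie to the right of the line and Faah to the left.

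Markers of other cells that express these enzymes differed between the libraries as well. In bulk RNA, fewer cells of a type and less RNA per cell cannot be told apart, and the part of other cells in the results above was not tested. GMP genes were present at high level in each library, with a summed RPKM of 10614 in NTB-GMP against 16261 in 4T1-GMP over 9 markers and Mpo, myeloperoxidase, highest in each. Of the 10378 tested genes, 5676 (54.7%) were higher in 4T1-GMP and 4702 lower, the shares to set beside the counts of markers. Some markers met the level only through the library where they were higher. Of the 9 GMP markers, 5 were higher in 4T1-GMP and 4 were lower. Those lower, named after their values were seen, were Cebpa, a transcription factor of the lineage, and 3 genes of surface proteins. Cd34 had 153.8 RPKM and 59.4 RPKM, Kit 78.5 RPKM and 49.1 RPKM, and Fcgr3, which encodes CD16, 53.1 RPKM and 28.6 RPKM. The 8 eosinophil markers, which matter for Alox15 and Ltc4s, summed to 1492 RPKM and 500.1 RPKM, and all 7 that met the level were lower in 4T1-GMP. Prg2, eosinophil major basic protein, was highest with 1208 RPKM and 403 RPKM. The 11 basophil and mast cell markers summed to 572 RPKM and 265 RPKM. All 8 that met the level were lower in 4T1-GMP, and Mcpt8 was highest in each library. Of those under the level, Cd200r3, named after its values were seen, was 3.25-fold higher in 4T1-GMP (interval 1.49 to 8.38). Tpsb2 had 1 read in NTB-GMP and 0 in 4T1-GMP, too few to give a direction. Alox15 was thus lower in the library where the eosinophil and basophil sums were lower. Ltc4s was at 1 read also where those sums were higher.

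Mature neutrophils, erythroid cells and lymphocytes carry the proteins depleted before the sort described for cultured GMPs. Alox5ap, Lta4h and Fpr2 are known to be abundant in mature neutrophils. The 12 markers listed for these cells summed to 514 RPKM and 4072 RPKM. Of the 12, 12 were at least 2-fold higher in 4T1-GMP, against 3.25% of all tested genes. Mmp8, Mmp9 and Ly6g, named after their values were seen, met the level only through 4T1-GMP. The stage of the cells that carried this RNA was not tested. S100a8 was highest in NTB-GMP and S100a9 in 4T1-GMP. Alox5, also a neutrophil gene, was lower in that library. The 9 megakaryocyte and platelet markers, cells rich in COX-1, summed to 16.1 RPKM and 5.77 RPKM. Itga2b was the highest of them in each library, and Gp6 and Treml1 were at 0 in both. Ppbp had 0.819 RPKM in NTB-GMP, recovered as 1 read or more, and 0 in 4T1-GMP. Its number of reads was not fixed by the recovery, so no direction is given. Pf4, platelet factor 4, named after its values were seen, had at least 1 read in NTB-GMP and at least 4 reads in 4T1-GMP. The 12 monocyte and dendritic cell markers summed to 312 RPKM and 127 RPKM, with 9 of the 10 that met the level lower. Ly6c2 was highest in NTB-GMP and F13a1 in 4T1-GMP. The 9 stem and early progenitor markers summed to 45.2 RPKM and 20.7 RPKM, with Meis1 highest in NTB-GMP and Hoxa9 in 4T1-GMP. Lymphoid markers summed to 191 RPKM and 338 RPKM, of which Nkg7 alone gave 190 RPKM and 337 RPKM, and Cd3g was at 0 in both. Erythroid markers summed to 4.93 RPKM and 0.444 RPKM, with the 6 globin symbols at 0 in both.

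**Figure D4:**
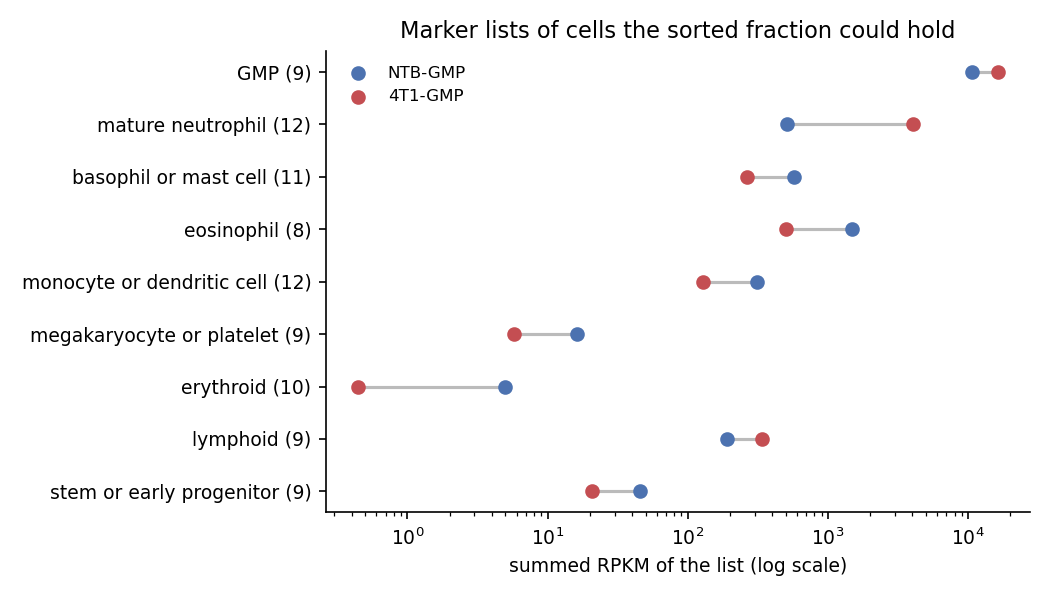
Summed RPKM (log scale) of 9 marker lists in each library, with the number of genes in each list in parentheses. Mature neutrophil markers sum to 514 RPKM in NTB-GMP against 4072 RPKM in 4T1-GMP, and eosinophil markers to 1492 and 500.1 RPKM.

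All 8 genes are protein-coding in the GENCODE M21 annotation of GRCm38, to which the deposited values, which carry symbols only, were matched by name. Ptgs1 (chr2:36230426-36252272, plus strand) and Ptges (chr2:30889471-30929863, minus strand) lie on chromosome 2. Alox15 (chr11:70344152-70352031) and Ltc4s (chr11:50236461-50238616) lie on the minus strand of chromosome 11. Ptgs2 is at chr1:150100031-150108227, Alox5ap at chr5:149264767-149288153 and Lta4h at chr10:93453411-93484875, on the plus strand, and Alox5 at chr6:116410077-116461178 on the minus strand. The strand setting of the counting is not given in the sources used here, so reads of antisense genes could be included where exons overlap, which they do by 148 bases for Ptgs1, 189 bases for Alox5ap and 268 bases for Ltc4s.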

How the data were processed

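Bulk RNA-seq of 1 NTB-GMP and 1 4T1-GMP library was analysed. The authors deposited RPKM, 1 value per symbol, and the submitters' processing notes name mm10, CASAVA 1.8.2, cutadapt 1.2.1, TopHat2 2.0.13, Picard 1.97, HTSeq 0.6.1 and edgeR 3.12.1. The gene lengths are not given in the sources used here. RPKM depend on what the library size counts, Rn45s included.

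Whole reads were recovered as the smallest length of 20 to 60000 bases at which both values were whole within 1e-08, with library sizes of 10180365 (NTB-GMP) and 30016263 (4T1-GMP) reads, set from short RNAs (whole for 38 and 37 of 40). Within the GENCODE M21 exonic length this is the single solution for 6 members. Reads of Alox5ap, Lta4h and several wider genes and markers are lower bounds, and their intervals are at least as wide as needed. The steps were tested on simulated data. No p-value was computed.

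The members, lists and motifs were chosen with earlier results of these data known. Named genes were the members, other pathway genes past 2-fold that averaged 1 RPKM or more, the highest of each role, and the highest or 0-level markers. With 2 libraries no genes of like pattern were sought. The symbols Gpr44 and Prxl2b were not listed under those names. Alternatives were pseudocounts of 1 and 0.01 or none, other filters, folds and scalings. Computations used Python 3.11.15, numpy 2.4.6, pandas 2.3.3 and scipy 1.17.1.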

Additional observations from a re-analysis of the deposited data

How the results depend on the processing

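The count of members at least 2-fold higher stayed at 1, Ptgs1, in 9 of the 10 alternatives and was 2 at a 1.5-fold threshold, with Lta4h. The count at least 2-fold lower was 0, and became 1 with all genes above 0 (Alox15) and 1 at 1.5-fold (Alox5). For the wider eicosanoid genes, the 5 higher became 4 with a pseudocount of 1, 3 after Rn45s was removed from the library sizes, 10 with all genes above 0, 2 with a mean RPKM of at least 5 and 10 at 1.5-fold. The 1 lower became 0 with a pseudocount of 1 or a mean RPKM of at least 5, 2 without Rn45s, with centring on the median or with upper-quartile scaling, 9 with all genes above 0 and 3 at 1.5-fold. The share of all genes called was computed for the main setting only, so the counts under the alternatives cannot be set against it. The median log2 ratio of the wider genes, 0.27, became 0.11 without Rn45s and 0.17 with all genes above 0. Filters and thresholds change by construction which genes count. Removal of Rn45s, centring and upper-quartile scaling each shift the ratios of all genes by about the same amount within that setting. The median of tested genes shifted by -0.16, -0.05 and -0.06 in that order. Without Rn45s the median of all tested genes went from 0.05 to -0.11. The causes of the other changes were not tested. Of 49 member ratios under alternatives, 41 moved by no more than the counting error and 7 by more in the same direction. Ptgs2 reversed, from -0.13 to 0.093 under quantile normalization. Alox15 was at -0.99 with a pseudocount of 1, against -2.37.

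At this depth the direction of Ptgs2, Ltc4s and Ptges was not resolved. No paired analysis was possible because neither group was replicated, and leaving out a replicate was not run.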

Other observations

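The epoxide branch of arachidonate metabolism, in which cytochrome P450 enzymes make epoxides and epoxide hydrolases open them, was mostly low. Cyp2j9, the highest of its 5 genes by mean, had 3.69 RPKM in NTB-GMP against 2.62 RPKM in 4T1-GMP, 1.41-fold lower (95% Clopper-Pearson interval on the reads 1.05 to 1.87). Cyp2j6, the other of the 5 that averaged 1 RPKM or more, had 2.05 RPKM and 3.35 RPKM, 1.63-fold higher (interval 1.27 to 2.12), and was named after its values were seen. The hydrolases, both under the mean of 1 RPKM and named after their values were seen, differed in direction. Ephx2, the soluble epoxide hydrolase, had 3 reads (0.114 RPKM) and 56 reads (0.721 RPKM), a ratio of 6.33 (interval 2.06 to 31.6). Ephx1, the microsomal one, had 7 reads and 5 reads, 4.13-fold lower (interval 1.13 to 16.5).

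Of the other genes under that mean, 4 whose interval of the ratio did not reach 1 are given here, named after their values were seen. Where a library had 1 to 3 reads, the interval rather than the ratio shows what the reads allow. Ggt1, which trims leukotriene C4 to D4, had 1 read without and 27 reads with the tumor, a ratio of 9.16 (interval 1.51 to 375). Ltb4r2, the low-affinity LTB4 receptor, was recovered as at least 6 reads and at least 3 reads, 5.90-fold lower (interval 1.26 to 36.4). Cmklr1, a receptor for chemerin and for resolvin E1, had 8 reads and 1 read, a ratio of 0.0424 (interval 0.000955 to 0.316). Alox12e, an epidermal lipoxygenase, had 8 reads and 6 reads, 3.93-fold lower (log2 interval -3.78 to -0.26). Hpgds, also named after its values were seen, is the hematopoietic prostaglandin D synthase of mast cells. It had 0.0596 RPKM and 0.0404 RPKM, recovered as at least 1 read and at least 2 reads. Basophil and mast cell markers summed to 572 RPKM and 265 RPKM.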
